A study of Mus musculus with 18 samples.

Results

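The mean effect of a tumour on the tibialis anterior (TA) muscle was estimated over 5 mouse models of cancer cachexia, from all 18 of the 18 RNA sequencing libraries of the series. The 10 tumour libraries form 5 groups of 2 and the 8 control libraries 4 groups of 2, each labelled a biological replicate. In the LLC group, C57BL/6 mice carried LLC cells, a lung carcinoma line, injected into muscle, and their controls received PBS. The KPCML1 and KPC groups were C57BL/6 mice given 1000 KPCML1 cells or 50000 KPC cells orthotopically, and both were set against the same 2 C57BL/6 mice injected with Matrigel only. The C26 group were CD2F1 mice with C26 cells, a colon carcinoma line, under the skin, and their controls were CD2F1 mice given PBS. The KPP group were C57BL/6 mice of a genetic tumour model induced with tamoxifen, set against KPP mice without tumour; the labels do not say whether those controls received tamoxifen or which promoter drives the recombinase. Muscles were taken at endpoint, and the labels give neither the age nor the sex of the mice, nor which muscle received the LLC cells. The mean effect of a gene is the average of the 5 differences between a tumour group and its own control on the log2 scale, so each model weighs the same. A log2 value of 1 is a doubling, and values in parentheses after a gene are mean effects ± the standard error of the fit.

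Cancer cachexia is a loss of muscle and fat that food does not reverse. In wasting muscle, transcription factors of the FoxO family and glucocorticoids raise genes of the ubiquitin and proteasome system and of autophagy, by which fibres break down contractile proteins. Mitochondria supply the fibre with ATP, and their respiratory complexes hold subunits encoded in the nucleus beside a small set encoded in the mitochondrion itself. Ribosomes are built in the nucleolus, where processing factors cut and fold ribosomal RNA before ribosomal proteins are added.

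Libraries held 22546541 to 36673780 fragments, and of 29456 genes detected 16096 had enough fragments to be tested. The fibre genes that define the tissue were abundant throughout, with Ckm, muscle creatine kinase, at 7687 to 24350 normalised counts scaled to the library (CPM) in tumour libraries and 17980 to 25670 CPM in control libraries. The T-cell gene Cd3e and the B-cell gene Cd79a had 22 and 53 fragments over all 18 libraries and were not tested. Mitochondrially encoded transcripts made up 11.7 ± 3.11% of the fragments in tumour libraries (SD, n = 10) and 19.5 ± 2.68% in control libraries (SD, n = 8). Averaged over the 4 experiments (LLC, orthotopic, C26 and KPP), the share was 7.88 percentage points lower with tumour (tumour minus control -7.88; exact permutation within experiments, two-sided p = 0.000309, the smallest that the 3240 permutations can give). With these transcripts left out of the counts, all 101 small consistent genes described further on were still called on the mean. Of these, 76 still met the rule of that set, and 23 other genes entered it.

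On the mean, 8181 of the 16096 genes were called at an adjusted p under 0.05 (50.8%), of which 4050 were higher with tumour (25.2%) and 4131 lower (25.7%). The single models, with 2 libraries a side, called 2191 genes in LLC (13.6%), 1374 in KPCML1 (8.54%), 4678 in KPC (29.1%), 3422 in C26 (21.3%) and 5912 in KPP (36.7%). The median standard error of a gene was 0.15 log2 on the mean and 0.30 in each single model, and the mean effect of all genes had a median of -0.01. The standard error measures the spread between the libraries of a group and not the spread between models, so a call on the mean speaks for these 5 models together. Of the genes called on the mean, 463 were also called in all 5 single models, 750 in 4, 1129 in 3, 2109 in 2 and 2541 in 1. The remaining 1189 (7.39% of all genes tested, 531 higher at 3.3% and 658 lower at 4.09%) were called in no single model. In the other direction, 1862 of the 8854 genes called in at least 1 single model were not called on the mean.

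**Figure D1:**
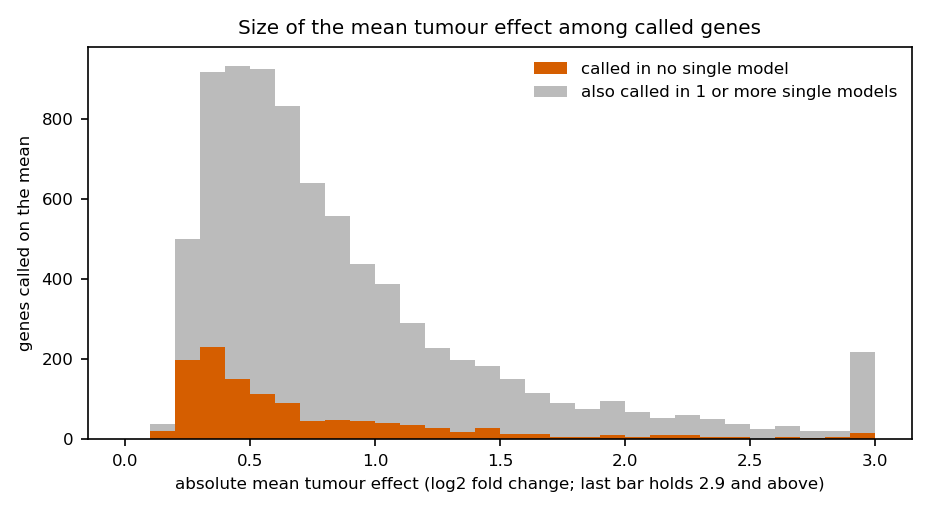
Number of genes called on the mean (vertical axis) by the absolute mean tumour effect in log2 fold change (horizontal axis), with genes called in no single model in orange and the rest in grey. Genes called in no single model made up 597 of the 2389 called genes with an absolute mean effect under 0.5 and 252 of the 2398 with one of 1 or more.

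The genes that only the mean called had an absolute mean effect with a median of 0.50 log2, against 0.69 over all genes called on the mean, as the plot of effect sizes shows. Of the called genes with an absolute mean effect under 0.5, 25.0% were called in no single model, and of those with 1 or more, 10.5%. A missed call in every single model itself favours genes of small effect, so this is a description. Only 1 of the 1189 was also called in the joint test for differences among the 5 effects, against 947 of the 8181 called on the mean and 1336 of all genes tested (8.3%). Leaving out genes called in any single model of the same fit itself removes genes that this test could call. The count of 1 therefore does not show that the effects agree among models. The effects of the 4 genes with the smallest changes were near the limit of what the libraries resolve: the condensin subunit gene Ncaph2 (0.16 ± 0.06), the palmitoyltransferase gene Zdhhc17 (0.16 ± 0.06), the heparan sulfate polymerase gene Ext2 (0.18 ± 0.07) and the arginyltransferase gene Ate1 (0.18 ± 0.07). Each of these 4 lost its call in 14 to 17 of the 32 alternative settings tried. Ncaph2 stood at 57.1 CPM in the lowest tumour library, with a median of 61.9 and a highest of 66.1, against 51.7, 55.8 and 62.4 CPM in controls, so the groups overlapped.

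A stricter set was therefore described, called here the small consistent genes: called on the mean, in no single model, with an absolute mean effect under 1, and with every tumour library on the same side of every control library of its experiment in all 4 experiments. Such separation in all 4 experiments was found for 2940 of all genes tested (18.3%), 1524 above (9.47%) and 1416 below their controls (8.8%), and all 2940 were called on the mean. The small consistent genes numbered 101 (0.627%), with 42 higher (0.261%) and 59 lower (0.367%). These values chose the genes and are given as a description. Their absolute mean effect ran from 0.20 to 0.97 with a median of 0.44, a 1.36-fold difference, and the 5 effects of a gene spanned a median of 0.29 log2. Just inside the limit of 1 were Gm14409 (-0.97), BB218582 (-0.93) and Kcnk2 (-0.92), and just outside it Gpx4-ps2 (1.01), Wasf3 (-1.02) and 4930458D05Rik (1.05).

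The set depends on each library, since a library left out changes both the calls in single models and the separation. It numbered 192 and 191 without the first and second LLC control, 163 and 182 without the first and second LLC tumour library, and 260 and 274 without the first and second Matrigel control. It numbered 212 without either C26 control, 157 without the second C26 tumour library, 257 and 172 without the first and second KPP control, and 157 without the second KPC library; without any other library it stayed within 1.5 times. Its members changed too: of the 101 genes, 47 still met the rule without the first KPC library, 52 without the second KPP tumour library, 54 without the first C26 tumour library and 37 with length-scaled counts, and other libraries left out kept 62 to 94. Of the 101, 80 to 101 were still called on the mean with 1 library left out or another setting. All 28 small consistent genes with the smallest p, 14 in each direction, kept their call on the mean in all 32 alternatives. They were picked for a small p in the same libraries, which itself favours keeping a call, so this is a description.

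**Figure D2:**
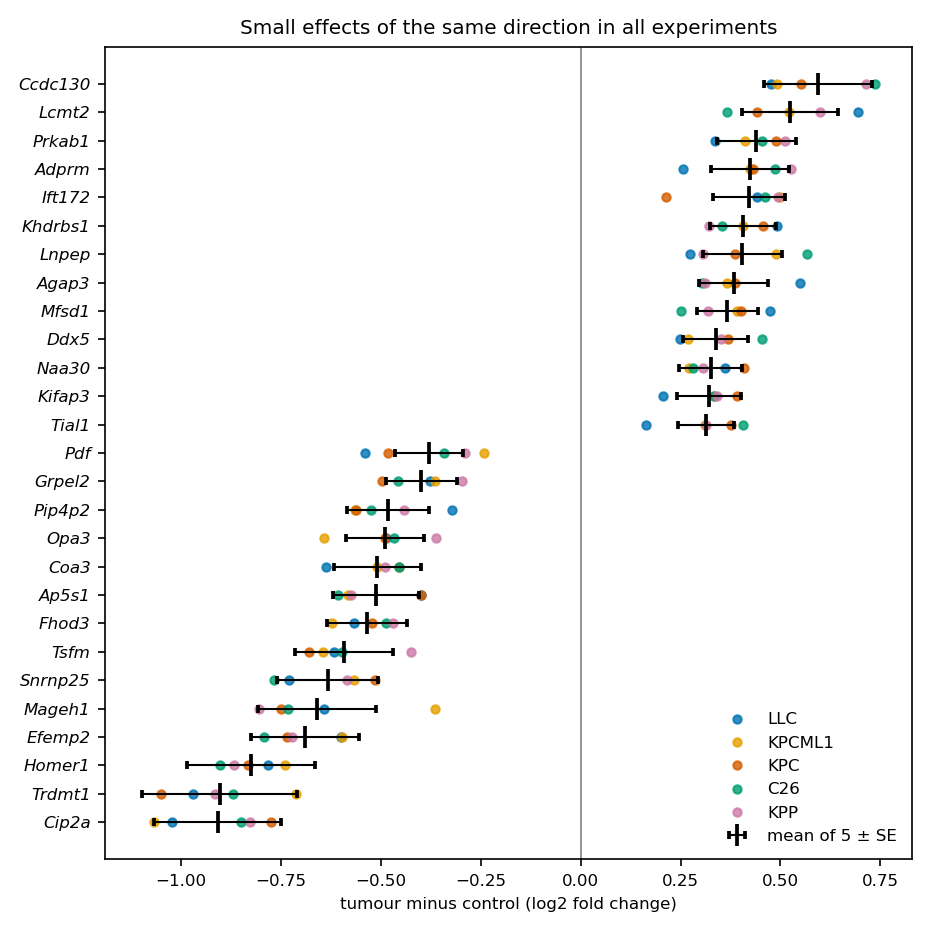
Log2 fold change, tumour minus control (horizontal axis), of 27 of the 28 small consistent genes of smallest p (rows, ordered by mean effect). Coloured points are the 5 models and the black mark is their mean ± SE; all 5 points of a gene lie on one side of 0.

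Of the 42 small consistent genes that rose, the 14 of smallest p have various roles. Khdrbs1 (0.41 ± 0.08), which encodes the splicing regulator Sam68 and lies on chromosome 4 (129703164 to 129742303, minus strand, build mm10), had 29.0 CPM in the lowest tumour library, 31.4 at the median and 40.5 in the highest, against 22.9, 24.7 and 27.9 CPM in controls. No tumour library was as low as any control library, and the 5 effects ran from 0.32 in KPP to 0.49 in LLC. Ddx5 (0.34 ± 0.08), an RNA helicase of splicing and transcription, had 464, 530 and 640 CPM in tumour libraries (lowest, median, highest) and 402, 440 and 465 CPM in controls. Its lowest tumour library, of KPP, lay just under the highest control library, of C26, and within each experiment the groups did not overlap. Tial1 (0.31 ± 0.07), which binds RNA in stress granules, had effects from 0.16 in LLC to 0.41 in C26, and Ccdc130 (0.59 ± 0.13), a putative splicing factor, from 0.48 in LLC to 0.74 in C26.

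Mfsd1 (0.37 ± 0.08), a transporter of the lysosomal membrane, had 21.4 to 27.3 CPM in tumour libraries and 17.5 to 20.6 CPM in controls, without overlap. Lcmt2 (0.52 ± 0.12), an enzyme that modifies transfer RNA, had 4.39 to 6.13 CPM in tumour libraries and 2.93 to 3.89 CPM in controls. Adprm (0.42 ± 0.10), an ADP-ribose hydrolase, had 5.53 to 6.73 CPM in tumour libraries and 4.04 to 5.35 CPM in controls. In the last 2 genes, too, every tumour library was above all 8 controls. Prkab1 (0.44 ± 0.10) encodes a regulatory subunit of the energy sensor AMPK, and its 5 effects lay between 0.34 and 0.51. Agap3 (0.38 ± 0.09), a regulator of Arf GTPases, Lnpep (0.40 ± 0.10), an aminopeptidase that travels with the glucose transporter GLUT4, Naa30 (0.33 ± 0.08), which acetylates protein N-termini, Kifap3 (0.32 ± 0.08), an adaptor of the kinesin-II motor, and Ift172 (0.42 ± 0.09), of transport in cilia, rose as well. The 28 increases not named by the rule ran from 0.20 to 0.65 with a median of 0.35.

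Of the 59 small consistent genes that fell, the 14 of smallest p likewise have various roles. Tsfm (-0.59 ± 0.12), the elongation factor Ts of mitochondrial translation on chromosome 10 (127011572 to 127030840, minus strand), had 8.12, 11.2 and 14.9 CPM in tumour libraries (lowest, median, highest) and 12.9, 17.6 and 19.9 CPM in controls. Coa3 (-0.51 ± 0.11), an assembly factor of cytochrome c oxidase, had 24.0, 33.3 and 38.4 CPM in tumour libraries and 36.3, 46.5 and 59.3 CPM in controls. Opa3 (-0.49 ± 0.10), a protein of the mitochondrial membrane, had 42.6, 57.0 and 69.5 CPM in tumour libraries and 70.4, 80.6 and 91.1 CPM in controls. For Opa3 every tumour library was below every control library of the series, while for Tsfm and Coa3 the ranges overlapped across experiments and not within them. Pdf (-0.38 ± 0.08), the peptide deformylase of mitochondria, and Grpel2 (-0.40 ± 0.09), a nucleotide exchange factor of the mitochondrial Hsp70, fell as well.

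**Figure D3:**
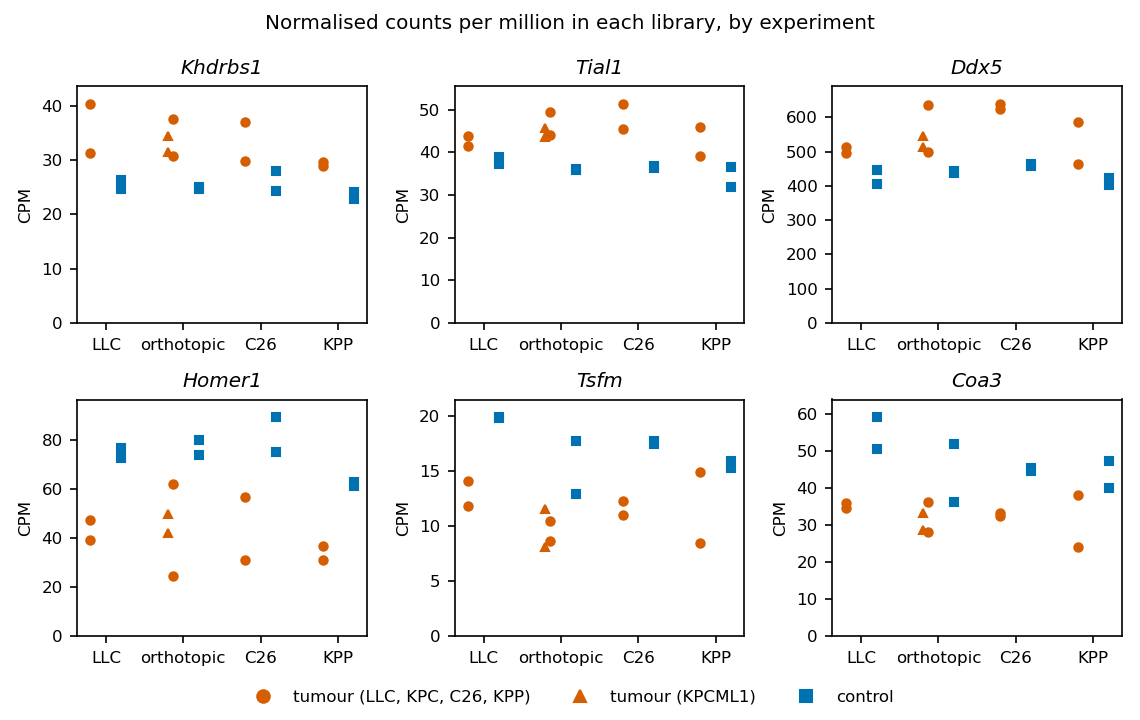
Normalised CPM (vertical axes, from 0) of 6 small consistent genes in each of the 18 libraries, by experiment (horizontal axes), with tumour libraries in orange left of control libraries in blue. Khdrbs1, Tial1 and Ddx5 were higher and Homer1, Tsfm and Coa3 lower in every tumour library than in the controls of the same experiment.

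Homer1 (-0.83 ± 0.16), a scaffold that couples membrane receptors to calcium stores, had 24.4, 40.7 and 61.8 CPM in tumour libraries (lowest, median, highest) and 61.1, 74.5 and 89.2 CPM in controls. Its 5 effects lay between -0.74 and -0.90, the lowest adjusted p of a single model being 0.057. Fhod3 (-0.53 ± 0.10), a formin that organises sarcomeric actin, had 30.9 to 49.6 CPM in tumour libraries and 44.0 to 65.0 CPM in controls. Cip2a (-0.91 ± 0.16), an inhibitor of the phosphatase PP2A, was scarce, with 0.476 to 0.991 CPM in tumour libraries and 0.865 to 1.59 CPM in controls. Efemp2 (-0.69 ± 0.14), fibulin-4 of elastic fibres, Trdmt1 (-0.90 ± 0.19), a transfer RNA methyltransferase, and Snrnp25 (-0.63 ± 0.13), of the minor spliceosome, were each lower in every tumour library than in the controls of its experiment. Ap5s1 (-0.51 ± 0.11), a subunit of the AP-5 adaptor, Pip4p2 (-0.48 ± 0.10), a phosphoinositide phosphatase, and Mageh1 (-0.66 ± 0.15), of the MAGE family, complete the named genes. The 45 decreases not named by the rule ran from -0.97 to -0.27 with a median of -0.47; among them, named after its values were seen, was Tpm2 (-0.53 ± 0.14), beta-tropomyosin of the thin filament, with 2415 to 6744 CPM in tumour libraries and 6186 to 8700 CPM in controls. Only 6 of the 101 small consistent genes, namely Eif1b, Nup88, Prkab1, Shmt2, Grpel2 and Tpm2, belong to any of the 54 gene lists described here.

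Promoters were read for the small consistent genes, of which 42 were higher and 59 lower. The rule of the set itself asks for the same direction in every experiment, so that likeness restates the choice. Whether these genes share regulation was not tested. RefSeq promoters (build GRCm38.p6, from 250 bases before to 50 after the start) matched 11354 of 16079 symbols tested, and 36 of the 42 higher and 46 of the 59 lower small consistent genes. The motif of the transcription factor NRF1, searched as the letters GCGCA and GCGC with any base between them, was found on either strand in 22.2% of the small consistent promoters that were higher and in 19.6% of those that were lower, against 9.61% of all promoters of the tested genes. Both directions held the motif at similar shares, on 8 of 36 and 9 of 46 promoters, and no test was made. Other motifs were searched too. The STAT motif was in 19.4% of the higher and 8.70% of the lower promoters, against 6.91% of all. The antioxidant response element was in 5.56% and 21.7%, against 14.7% of all. Among gene lists the NRF1 motif was in 30.3% of the promoters of complexes II to V and 7.32% of those of FoxO and glucocorticoid targets. The promoters of Ift172 (chr5:31291065-31291364, minus strand), the higher gene of smallest p with a match, and of Snrnp25 (chr11:32205165-32205464, plus strand), the lower one, are printed 5′ to 3′ with the match in capitals.
Ift172: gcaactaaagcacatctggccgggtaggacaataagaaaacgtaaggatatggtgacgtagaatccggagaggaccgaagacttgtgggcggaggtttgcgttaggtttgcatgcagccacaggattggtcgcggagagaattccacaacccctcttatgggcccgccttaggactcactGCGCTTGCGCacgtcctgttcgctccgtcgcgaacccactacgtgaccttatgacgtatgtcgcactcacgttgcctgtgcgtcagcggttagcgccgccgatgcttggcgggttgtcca
Snrnp25: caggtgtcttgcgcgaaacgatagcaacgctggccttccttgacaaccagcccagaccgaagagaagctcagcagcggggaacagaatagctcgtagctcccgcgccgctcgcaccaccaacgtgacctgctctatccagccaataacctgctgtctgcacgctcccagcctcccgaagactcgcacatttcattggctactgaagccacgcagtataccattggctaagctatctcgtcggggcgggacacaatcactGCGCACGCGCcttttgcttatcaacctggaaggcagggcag

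Genes that build ribosomes were mostly higher. Of 99 ribosome biogenesis genes 87 were called higher and 1 lower, against 25.2% and 25.7% of all genes, with a median mean effect of 0.64. The medians of the 5 models lay between 0.44 in KPCML1 and 0.80 in KPP, and 58 of the 99 genes had every tumour library above its controls in all 4 experiments, against 9.47% of all genes. Nop14 (1.45 ± 0.09), of the small subunit processome, had 42.2, 56.9 and 108 CPM in tumour libraries (lowest, median, highest) and 20.3, 22.1 and 27.2 CPM in controls, so no library of the series overlapped. Ddx27 (1.74 ± 0.12) and Ddx21 (1.57 ± 0.12), nucleolar helicases, and Wdr43 (1.27 ± 0.09), of the same processome, followed by p. In 5 members the change was seen on the mean and in no single model: Taf1b (0.46 ± 0.11), a factor of RNA polymerase I, Ltv1 (0.49 ± 0.13), Nol10 (0.39 ± 0.12), Gnl3l (0.26 ± 0.10) and Ddx47 (0.23 ± 0.08). Of all genes, 3.3% were called higher and 4.09% lower in this way. Over all lists 96 of 2033 genes were so called, against 7.39% of all genes, so such members are named here and below as a description. Ltv1, an assembly factor of the small subunit, had 23.6 to 41.2 CPM in tumour libraries and 19.4 to 30.9 CPM in controls. The single member that fell, Rsl24d1 (-0.24 ± 0.08), acts in large subunit assembly and lost its call in several settings.

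Of the 99 genes, 84 had a RefSeq promoter. The letters CCGGAAGT, bound by GABP and other ETS factors, were found on either strand in 33.3% of these promoters, against 7.69% of all, and the E-box CACGTG, bound by Myc, Max and other basic helix-loop-helix factors, in 21.4%, against 9.96% of all. Among all called genes, GABP letters were in 10.2% of the promoters of higher genes and 5.07% of those of lower genes, and the E-box in 12.6% and 7.76%. Other lists varied. The E-box was in 24.4% of the promoters of FoxO and glucocorticoid targets and 6.06% of those of complex I. GABP letters were in 23.1% of proteasome promoters and 0% of those of FoxO and glucocorticoid targets. Both motifs together were in 6 of the 84 promoters and in 97 of all 11354, a pairing that was not tested. The 2 of these with the smallest p, Tsr1 (1.49 ± 0.12; chr11:74897830-74898129, plus strand), a GTPase-like factor of small subunit maturation, and Utp4 (0.78 ± 0.09; chr8:106893390-106893689, plus strand), of the small subunit processome, are printed 5′ to 3′ with both motifs in capitals. A match is a string of letters, not a measured binding site.
Tsr1: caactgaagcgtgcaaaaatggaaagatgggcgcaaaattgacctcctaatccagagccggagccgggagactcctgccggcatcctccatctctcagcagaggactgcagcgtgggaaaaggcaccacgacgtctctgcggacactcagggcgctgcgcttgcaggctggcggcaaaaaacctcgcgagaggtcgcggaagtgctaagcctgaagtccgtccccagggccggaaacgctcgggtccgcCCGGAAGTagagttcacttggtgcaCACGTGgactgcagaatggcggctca
Utp4: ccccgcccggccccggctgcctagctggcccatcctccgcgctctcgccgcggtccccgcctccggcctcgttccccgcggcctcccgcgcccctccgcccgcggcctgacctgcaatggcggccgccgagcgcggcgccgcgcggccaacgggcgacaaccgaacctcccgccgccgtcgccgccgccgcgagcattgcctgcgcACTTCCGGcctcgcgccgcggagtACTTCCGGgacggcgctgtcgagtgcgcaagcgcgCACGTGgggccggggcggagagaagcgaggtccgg

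Ribosomal protein and translation factor genes were mostly higher as well, against 25.2% of all genes higher and 25.7% lower. Of 81 cytosolic ribosomal protein genes 80 were called higher and 1 lower, with a median mean effect of 0.74. Their median was 0.07 in LLC, 0.61 in KPCML1, 0.72 in KPC, 0.90 in C26 and 1.40 in KPP, and the effects of 26 genes differed among models in the joint test (8.3% of all genes). Ribosomal protein genes have many near-identical pseudogenes, between which Salmon divides reads, so single values carry that uncertainty. Rpl3 (1.60 ± 0.15), of the peptidyl transferase centre, had 36.4 to 385 CPM in tumour libraries and 12.3 to 73.6 CPM in controls. The 1 gene that fell was its muscle paralogue Rpl3l (-0.64 ± 0.12), which was below its controls in every tumour library. Of 57 translation factor genes 45 were called higher and 1 lower (median 0.53), among them Eef2 (1.06 ± 0.10), the elongation factor that moves the ribosome, with 2054 to 4508 CPM in tumour libraries and 999.6 to 1600 CPM in controls. Eif4ebp1 (2.86 ± 0.18), which encodes the repressor 4E-BP1 of cap-dependent translation, had the largest increase of this list, and Eif4e (-0.83 ± 0.10), the cap-binding protein that 4E-BP1 holds, was the member that fell. Eif1b (0.34 ± 0.09), an initiation factor, was called in no single model. Of 23 aminoacyl-tRNA synthetase genes 16 were called higher, led by Vars (1.93 ± 0.14), and 1 lower, the scaffold gene Aimp2 (-1.62 ± 0.10).

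Genes that splice and export RNA showed many small increases, beside 25.2% of all genes called higher and 25.7% lower. Of 71 spliceosome genes 41 were called higher and 6 lower (57.7% and 8.45%), with a median of 0.31 and model medians from 0.23 in LLC to 0.41 in KPC. Without the KPC model, or in the additive model, 3 were called lower. Hnrnpu (0.98 ± 0.08), a nuclear RNA-binding protein, had 218, 253 and 366 CPM in tumour libraries (lowest, median, highest) and 125, 136 and 151 CPM in controls, with no overlap in the series. The splicing factors Srsf1 (0.25 ± 0.10), Srsf2 (0.33 ± 0.10), Srsf7 (0.32 ± 0.12) and Tra2a (0.31 ± 0.12) and Snrnp40 (0.28 ± 0.10), of the U5 particle, were called on the mean and in no single model. Srsf1 had 59.1 to 104 CPM in tumour libraries and 57.2 to 70.6 CPM in controls, so its groups overlapped. Of 53 nuclear pore and transport genes 28 were called higher and 3 lower (median 0.29), with 1 lower without the second KPCML1 library, without the first C26 control or with no filter on low counts. Ipo4 (1.39 ± 0.11), an importer of histones and ribosomal proteins, had 70.1 to 127 CPM in tumour libraries and 27.8 to 45.5 CPM in controls. Nup98 (0.50 ± 0.13), Nup214 (0.45 ± 0.17), Nup88 (0.38 ± 0.10) and Nup54 (0.25 ± 0.10), all nucleoporins, and Nxt1 (0.57 ± 0.13), of mRNA export, rose on the mean and in no single model, while Nup35 (-0.32 ± 0.10) and Kpna6 (-0.22 ± 0.07) fell likewise.

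**Figure D4:**
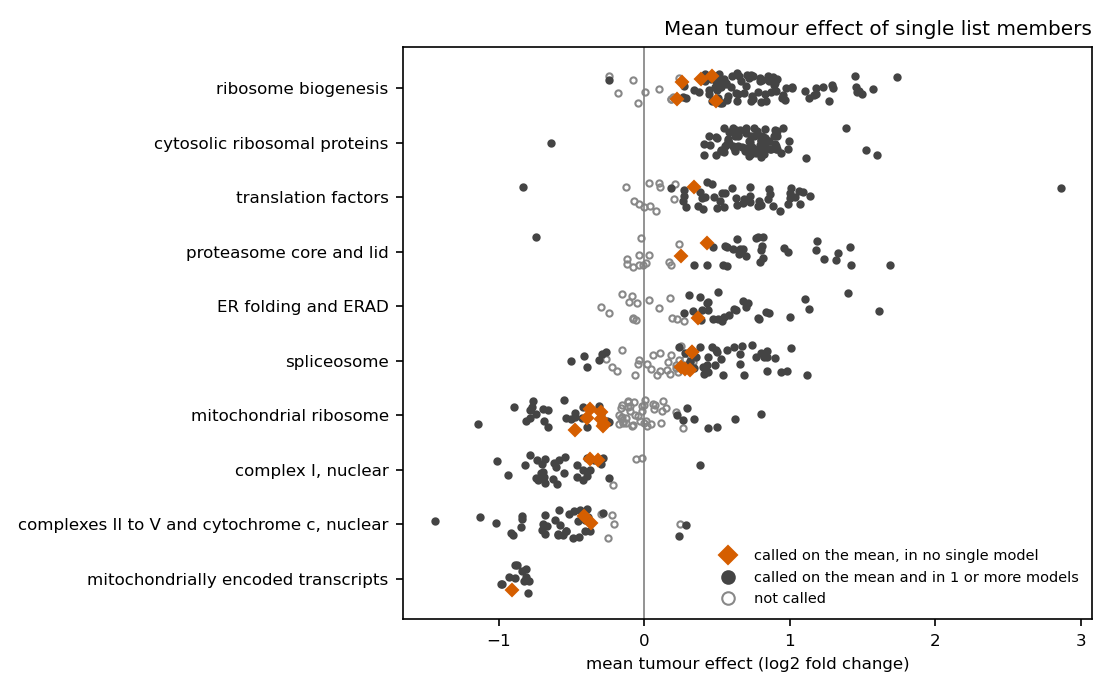
Mean tumour effect in log2 fold change (horizontal axis) of each tested member of 10 gene lists (rows, points spread vertically for visibility). Orange diamonds are genes called on the mean and in no single model, filled points genes also called in 1 or more models, and open points genes not called. Most ribosome biogenesis genes lie to the right of 0 and most nuclear subunits of the respiratory complexes to the left. All mitochondrially encoded transcripts lie to the left.

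Lists of protein breakdown and folding differed in their shares of higher genes. Over all genes 25.2% were called higher and 25.7% lower, and over the atrophy ubiquitin ligases 44.8% and 24.1%. The share of those ligases that fell was thus near that of all genes. Of 46 proteasome genes 33 were called higher and 1 lower (median 0.62), with Psmd4 (1.69 ± 0.14), a ubiquitin receptor of the regulatory particle, at 240 to 1018 CPM in tumour libraries and 127 to 199 CPM in controls. Psma1 (0.43 ± 0.11), a core subunit, and Psme3 (0.25 ± 0.09), an activator of the nuclear proteasome, were called in no single model. The member that fell, Psme1 (-0.74 ± 0.09), encodes an interferon-inducible activator. Of 45 endoplasmic reticulum folding and degradation genes 30 were called higher and 0 lower (median 0.43), and 2 were lower without the C26 model or without the first KPC library, and 1 without the first KPP tumour library. Xbp1 (1.13 ± 0.07), the transcription factor of the unfolded protein response, had 61.7 to 136 CPM in tumour libraries and 35.5 to 54.5 CPM in controls. Of 48 autophagy genes 27 rose and 8 fell, led by Map1lc3b (1.44 ± 0.09), which encodes the autophagosome protein LC3B, and of 50 lysosome genes 27 rose and 4 fell, led by the acid glucosidase gene Gaa (1.79 ± 0.14). The lysosome genes that fell numbered 2 without the first LLC control, the first LLC tumour library, either Matrigel control, the second KPCML1 library or either C26 control, likewise 2 without KPP or in the additive model, and 1 with length-scaled counts. Of 54 cytosolic chaperone genes 23 rose and 10 fell (median 0.07), and of 37 genes of ubiquitin and its E1 and E2 enzymes 13 rose and 4 fell (median 0.15). Of 28 genes of cullins and the COP9 signalosome 13 rose and 4 fell (median 0.06), while without the second Matrigel control 8 rose and 2 fell, and without KPP 7 rose. Among 29 atrophy ubiquitin ligase genes 13 rose and 7 fell, with a median of only 0.07; without the second Matrigel control 8 rose. Fbxo32 (2.75 ± 0.18), atrogin-1, had 1100 to 2847 CPM in tumour libraries and 155 to 412 CPM in controls, while Nedd4 (0.31 ± 0.11) rose and Trim32 (-0.49 ± 0.16) and Fbxl5 (-0.28 ± 0.08) fell on the mean and in no single model. Of 51 deubiquitinase genes 24 rose and 4 fell (median 0.23), among them Usp48 (0.22 ± 0.07), Usp10 (0.22 ± 0.08) and Bap1 (0.23 ± 0.07), called in no single model; without the first or second Matrigel control 13 or 14 rose.

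Genes of the respiratory complexes were mostly lower. Of 37 nuclear complex I genes 33 were called lower and 1 higher (median -0.55), and of 43 nuclear genes of complexes II to V and cytochrome c 36 lower and 2 higher (median -0.52), against 25.7% and 25.2% of all genes. The complex I medians were -0.85 in LLC, -0.51 in KPCML1, -0.39 in KPC, -0.78 in C26 and -0.12 in KPP. Ndufs1 (-1.02 ± 0.10), the iron-sulfur subunit, had 172, 261 and 347 CPM in tumour libraries (lowest, median, highest) and 411, 523 and 647 CPM in controls, and Cyc1 (-1.13 ± 0.09), cytochrome c1, had 194, 250 and 291 CPM in tumour libraries and 430, 574 and 657 CPM in controls. Neither gene overlapped between tumour and control in the series. The supernumerary subunit genes Ndufa1 (-0.37 ± 0.11), Ndufs5 (-0.32 ± 0.11), Cox6c (-0.42 ± 0.13) and Cox7c (-0.37 ± 0.12) fell on the mean and in no single model. The members called higher were Ndufa7 (0.38 ± 0.11), Cox8a (0.29 ± 0.08) and Cox6a2 (0.24 ± 0.09), and each lost its call without the KPP model or the first Matrigel control. In complexes II to V, 0 were called higher without the C26 model. With no filter on low counts, length-scaled counts, the additive model or either form of replicate block, 1 was called higher there. Of those from complexes II to V, 1 was called without either LLC control, the second LLC tumour library, the second C26 tumour library, the first KPP control or the first KPP tumour library. All 13 mitochondrially encoded transcripts fell on the mean (median -0.87), by between 0.79 and 0.99 on the log2 scale, and 1 of them, mt-Nd3 (-0.91 ± 0.21), in no single model. The single models called 10 of them lower in C26, 4 in KPCML1 and 0 in LLC, KPC and KPP. Their medians were -0.82 in LLC, -1.08 in KPCML1, -0.31 in KPC, -1.26 in C26 and -0.85 in KPP. In 6 of the 13 every tumour library was below its controls in all 4 experiments, against 8.8% of all genes.

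Genes of the mitochondrial ribosome, unlike those of the cytosolic one, were called lower more often than higher. Of its 77 nuclear genes 31 were called lower (40.3%, against 25.7% of all genes) and 8 higher (10.4%, against 25.2%). Their median was -0.14, with model medians from -0.43 in LLC to 0.09 in KPP. The count of higher genes was 2 without the KPP model or the first Matrigel control, 4 without the second LLC control and 5 without the first KPP tumour library. Mrpl19 (-1.15 ± 0.09), a protein of the large subunit, had 7.35 to 14.04 CPM in tumour libraries and 19.1 to 28.95 CPM in controls, without overlap. Mrpl1 (-0.48 ± 0.12), Mrps25 (-0.39 ± 0.11), Mrps28 (-0.38 ± 0.12), Mrpl10 (-0.30 ± 0.09), Mrpl36 (-0.30 ± 0.10), Mrps14 (-0.29 ± 0.09) and Mrps35 (-0.28 ± 0.10) fell on the mean and in no single model. Mrpl1 had 16.1 to 26.9 CPM in tumour libraries and 24.5 to 40.9 CPM in controls. Of 33 pyruvate dehydrogenase and citric acid cycle genes 22 fell and 4 rose (median -0.50), with Dlat (-1.19 ± 0.08), of the dehydrogenase core, falling and Pdk4 (2.38 ± 0.27), the kinase that switches the dehydrogenase off, rising. Of 29 regulators in the PGC-1, ERR and PPAR list 10 fell (34.5%) and 7 rose (24.1%), with a median of -0.09. Among these regulators Esrra (-1.09 ± 0.09), Perm1 (-2.06 ± 0.15) and the deacetylase gene Sirt3 (-1.61 ± 0.10) fell. Polrmt (0.45 ± 0.12), the mitochondrial RNA polymerase, rose on the mean and in no single model. Of 42 fatty acid oxidation genes 15 rose and 5 fell (median 0.08), and 10 fell without the first KPP tumour library.

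**Figure D5:**
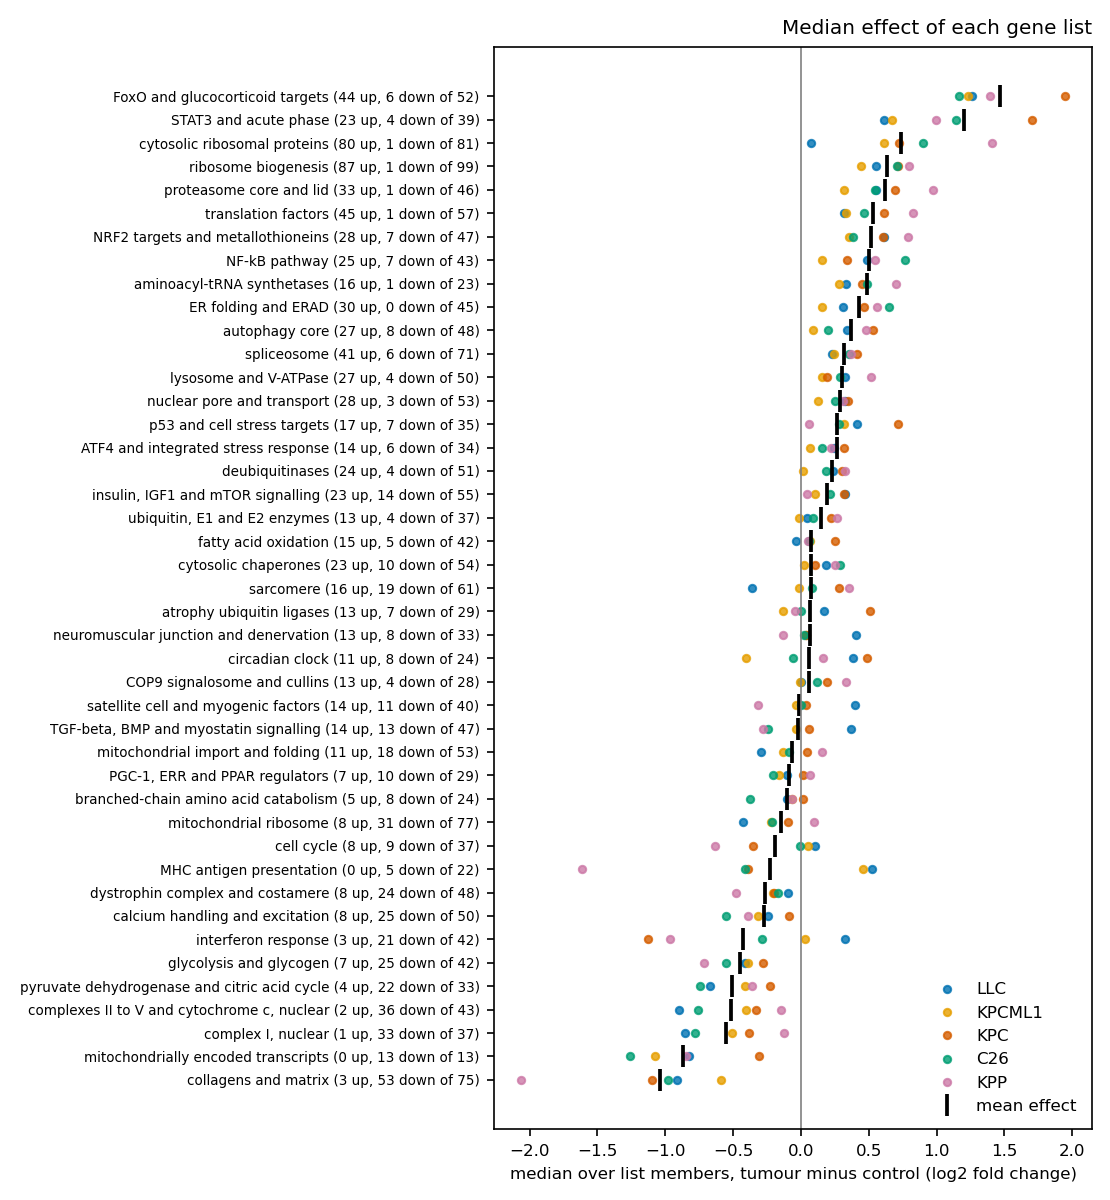
Median effect of each gene list other than the cell type markers (rows, with the number of members called higher and lower on the mean of those tested) in log2 fold change, tumour minus control (horizontal axis). Coloured points are the medians of the 5 models and the black mark is the median of the mean effect; of the lists plotted, FoxO and glucocorticoid targets have the highest and collagens and matrix the lowest black mark.

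Contractile and metabolic genes of the fibre were mixed, beside 25.2% of all genes called higher and 25.7% lower. Of 42 glycolysis and glycogen genes 25 fell and 7 rose (median -0.45), led by Tpi1 (-1.72 ± 0.13), triosephosphate isomerase, and Gys1 (-0.36 ± 0.10), glycogen synthase of muscle, fell while Slc2a1 (0.69 ± 0.19), the glucose transporter GLUT1, rose, both on the mean alone. Of 50 calcium handling and excitation genes 25 fell and 8 rose (median -0.28). Casq1 (-2.20 ± 0.13), calsequestrin of the fast fibre, had 116 to 971 CPM in tumour libraries and 1842 to 2405 CPM in controls. Sarcomere genes had 16 of 61 called higher and 19 lower with a median of 0.07, shares close to those of all genes. Of 52 FoxO and glucocorticoid targets 44 rose and 6 fell (median 1.47); of these 50, Foxo4 (0.22 ± 0.08), a member of the FoxO family, was the 1 called in no single model. In the list of NRF2 targets and metallothioneins 28 of 47 rose and 7 fell (median 0.52; 4 fell in the additive model), and the peroxiredoxin genes moved in small steps on the mean alone, Prdx2 (-0.39 ± 0.09) and Prdx3 (-0.28 ± 0.09) lower and Prdx6 (0.23 ± 0.09) higher.

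Genes of the signalling lists moved in both directions, as did all genes, of which 25.2% were called higher and 25.7% lower. Of 39 STAT3 and acute phase genes 23 rose and 4 fell (median 1.20), and of 43 NF-kB genes 25 rose and 7 fell (median 0.50; 4 fell without the second KPCML1 library). Fos (1.58 ± 0.37), an immediate early factor, and Rel (0.50 ± 0.17), an NF-kB subunit, rose and Tnfaip3 (-0.67 ± 0.20), the NF-kB inhibitor A20, fell on the mean alone. Of 55 insulin, IGF1 and mTOR genes 23 rose (41.8%) and 14 fell (25.5%, near the share of all genes), with a median of 0.19. Called on the mean alone were the mTOR complex genes Rictor (0.37 ± 0.14) and Akt1s1 (0.32 ± 0.10), which rose, and the kinase gene Pik3cb (-0.37 ± 0.12), which fell. Of 34 genes of the integrated stress response 14 rose and 6 fell (median 0.27), and without the second Matrigel control 8 rose; the amino acid transporter gene Slc38a2 (0.59 ± 0.17) and Shmt2 (0.23 ± 0.08), of mitochondrial serine metabolism, rose on the mean alone. Of 42 interferon response genes 21 fell and 3 rose (median -0.43), but their median was 0.33 in LLC and -1.13 in KPC, and 11 fell without KPC, 9 without KPP and 10 in the additive model. Of the 3 that rose, the count was 1 without the second Matrigel control or the first KPP tumour library.

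Genes of the matrix and of cells other than fibres moved beside these groups, and their part in the results was not tested. The shares over all genes were 25.2% called higher and 25.7% lower. In a whole muscle, fewer cells of a type and less RNA per cell cannot be told apart. Of 75 collagen and matrix genes 53 fell and 3 rose (median -1.04; 5 rose without the first C26 tumour library or the first KPP tumour library), with Col3a1 (-3.67 ± 0.26), fibrillar collagen, at 2.73 to 42.4 CPM in tumour libraries and 86.3 to 197 CPM in controls. Tendon markers fell in 11 of 16 cases and rose in 0 (median -1.95; 1 rose without the second KPC library or the first C26 tumour library), with a summed level of 74.9 to 229 CPM in tumour libraries and 111 to 586 CPM in controls. Neutrophil markers rose in 13 of 16 cases and fell in 1 (median 3.57), with a summed level of 65.6 to 155 CPM in tumour libraries and 29.3 to 75.6 CPM in controls; S100a9 (4.33 ± 0.26), their abundant calcium-binding protein, stood at 0.108 to 0.679 CPM in controls. Macrophage markers rose in 9 of 23 cases and fell in 1 (median 0.48; 4 rose without the second Matrigel control), with 74.9 to 227 CPM summed in tumour libraries and 59.8 to 163 CPM in controls, and the complement genes C1qb (0.66 ± 0.18) and C1qc (0.49 ± 0.17) and the integrin gene Itgam (0.86 ± 0.29) were among them on the mean alone. None fell without the first LLC control, the second LLC tumour library, the first Matrigel control, the first KPCML1 library, the second KPC library, the first C26 control, the second C26 tumour library or the second KPP tumour library. The macrophage median was 1.15 in KPCML1, with 7 called higher, and between 0.04 and 0.54 in the other models. In LLC and C26 0 macrophage markers were called, in KPC 3 higher and 2 lower, and in KPP 2 higher and 3 lower. The macrophage genes Adgre1 (0.300 to 2.72 CPM with tumour, 0.526 to 2.8 CPM in controls) and Csf1r (3.90 to 12.8 and 3.44 to 10.6 CPM) overlapped. Endothelial markers fell in 13 of 26 cases and rose in 3, but their median was -1.34 in KPP and between 0.03 and 0.33 in the other models, and without KPP 5 fell and 8 rose. Without the first LLC tumour library or the second KPP tumour library 5 rose, and without the first KPC library 6 rose. Their summed level was 1110 to 2761 CPM in tumour libraries and 1140 to 1706 CPM in controls. Erythroid markers rose in 11 of 16 cases and fell in 2 (median 1.88), with 310 to 7167 CPM in tumour libraries and 668 to 1306 CPM in controls, but their median was 2.30 in LLC, 3.56 in KPCML1, 2.46 in KPC, -0.32 in C26 and 0.89 in KPP. In C26 0 were called higher and 2 lower, and in KPP 1 higher and 2 lower. Of the markers of T, B and NK cells 5 could be tested, and the 2 called, Ighm (-3.85 ± 0.26) and Thy1 (-2.44 ± 0.23), fell.

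In some genes the models opposed each other and the mean was small. Of all genes, 150 were called higher in 1 model and lower in another, and 25 of these were also called on the mean. Samhd1 (0.31 ± 0.09), a nucleotide hydrolase that restricts viruses, had effects of 0.40 in LLC, 0.34 in KPCML1, -0.21 in KPC, 1.74 in C26 and -0.69 in KPP. Without C26 its mean effect was -0.04, so its call rests on that model. Ptpn4 (-0.31 ± 0.11), a tyrosine phosphatase, had -1.87 in LLC, -0.32 in KPCML1, 0.64 in KPC, -0.38 in C26 and 0.39 in KPP, and 0.08 on the mean without LLC. Fmo1 (-0.40 ± 0.08), a flavin monooxygenase, ran from 0.62 in KPCML1 to -1.68 in KPP, and Emilin1 (-0.83 ± 0.13), of elastic fibres, from 0.85 in C26 to -2.11 in KPP. At the other end stood genes picked for the narrowest range of effects among those called on the mean and in no single model. Their narrow ranges restate that choice. The median standard error of a gene in each single model was 0.30 log2, so ranges this narrow do not show that the effects are equal. Zfhx4 (-0.57 ± 0.14), a homeobox factor, had effects between -0.52 and -0.63, B9d2 (-0.44 ± 0.11), of the ciliary transition zone, between -0.38 and -0.50, and Uimc1 (0.22 ± 0.08), of DNA repair, and Cdk8 (0.21 ± 0.08), the kinase of Mediator, spanned 0.08 and 0.12 log2. Uimc1 and Cdk8 each lost their call in 14 of the 32 alternatives, and Zfhx4 and B9d2 in none. Of the genes with opposed effects, Ptpn4 lost its call in 10, Samhd1 in 3, Fmo1 in 2 and Emilin1 in 1.

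The largest mean effects among called genes with a mean of at least 5 CPM in tumour or control libraries are given for scale. They were called in most single models, and predicted genes were left out. Mt2 (5.39 ± 0.52), metallothionein 2, had 8.07 to 1479 CPM in tumour libraries and 1.35 to 19.2 CPM in controls. Chrna9 (5.32 ± 0.92), a subunit of the acetylcholine receptor, S100a8 (5.21 ± 0.55), the partner of S100a9, and Cxcl13 (4.67 ± 0.29), a chemokine, followed. Chrna9 had 61.1 CPM in the second KPP tumour library, 0.175 to 6.05 CPM in the other tumour libraries and 0 to 0.340 CPM in controls. Kcng4 (-4.39 ± 0.13), a modifier subunit of potassium channels, had 0.702 to 6.92 CPM in tumour libraries and 45.5 to 81.9 CPM in controls. Irx3os (-5.60 ± 0.28), an antisense RNA gene, Nrep (-4.74 ± 0.26), expressed in regenerating tissue, and Chad (-4.65 ± 0.65), of cartilage matrix, were the other large decreases. Chad varied widely among controls, with 26.9 and 2.80 CPM in the Matrigel controls and 0.0849 and 0.526 CPM in the LLC controls. In the LLC tumour libraries Chad had 0.0398 and 0.149 CPM. Whether the quantification used the strand is not given in the sources used here, so reads of Irx3os and of an overlapping gene on the other strand may not have been separated.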

How the data were processed

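Poly(A) RNA of 18 TA muscles was sequenced as pairs. Per the submitters' processing notes, reads were demultiplexed with bcl2fastq 2.20 and quantified with Salmon on mm10; the version of Salmon, its transcript release and its use of strand are not stated in them. The authors deposited, for 140825 transcripts a library, the estimated counts of fragments, not normalised, and the TPM that Salmon scaled within the library, beside effective length. TPM and effective length were used only for an alternative with length-scaled counts. The authors' own DESeq2 tables were not used here.

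Transcripts were matched to GENCODE M21 (mm10) by identifier without version, and 0.412 to 0.685% of the fragments of a library had no match. Per gene, the estimated counts were added up and rounded. With edgeR 4.0.16 (limma 3.58.1, R 4.3.3), low genes were removed by filterByExpr, libraries scaled by TMM and 1 model of 9 groups fitted by quasi-likelihood with 9 residual degrees of freedom. The contrast was the mean of the 5 tumour-minus-own-control effects; a joint test of 4 differences asked whether the effects differ. P values were adjusted by Benjamini and Hochberg over all 16096 genes, and calls are under 0.05. KPC and KPCML1 share controls, so they count as 1 experiment wherever libraries are compared within experiments. The scripts were tested on simulated data.

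The comparison, the 54 gene lists, the motifs and the rule on named genes were chosen with earlier results of these data known. By that rule the text names the 14 small consistent genes of smallest p in each direction, the 4 smallest effects called only on the mean, the 4 narrowest ranges among these, the 4 largest effects in each direction with at least 5 CPM, 4 genes with opposite calls, and, of each list described, the 4 members or fewer with the smallest p; predicted genes and pseudogenes were left out. 1 gene that the rule names is not reported here. Other names were added after their values were seen, namely list members that only the mean called, the few members that went against their list, and Tpm2. The share of mitochondrial transcripts was compared by permuting labels within experiments. The alternatives tried were DESeq2 1.42.0, relative log expression in place of TMM, length-scaled counts, no filter, mitochondrial transcripts left out, an additive model of experiment and tumour, 4 experiments weighted equally, replicate numbers as a block, and leaving out each model and each library. Tables and plots were made with pandas 2.3.3 and matplotlib 3.10.9 in Python 3.11.15.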

Additional observations from a re-analysis of the deposited data

Results flagged for a closer look

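In 6 of the genes named outside the gene lists the effects of the 5 models differed in the joint quasi-likelihood test of edgeR, adjusted over all genes: Fmo1 (adjusted p = 0.000919), Emilin1 (0.00444), Samhd1 (0.00444), Ptpn4 (0.00482), Kcng4 (0.00876) and Mt2 (0.0169). In the first 4 the effects had opposite signs among the models. Kcng4 fell and Mt2 rose in all 5 models, and the difference is one of size: the Kcng4 effect was -3.26 in LLC and -6.13 in KPP, and the Mt2 effect 3.12 in KPCML1 and 8.84 in C26. No small consistent gene was called in this test, and a missed call does not show that the effects are equal.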

How the results depend on the processing

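The number of genes called on the mean stayed within 1.5 times of 8181 in all 32 alternatives, and so did the counts in each direction and the fall of the mitochondrial share in every alternative run for it. Of 250 named genes 231 kept their call in all 32 alternatives, and 2 changed sign: Samhd1 was -0.04251 without C26 and Ptpn4 0.08303 without LLC, while other models left out gave up to 0.5663 for Samhd1 without KPP and -0.546 for Ptpn4 without KPC. The small consistent genes, 101, numbered 199 with no filter, 75 by DESeq2, 292 with a replicate block within each experiment, 93 to 274 without 1 library, and 185, 176, 275, 217 and 338 without LLC, KPCML1, KPC, C26 and KPP. Genes called only on the mean, 1189, numbered 1802 with a replicate block within each experiment and 1264 with 1 replicate block over all. Genes with differing effects, 1336, numbered 3475 by DESeq2, 4128 with no filter and 426 to 2637 without 1 library. The causes were not tested. Many of the named genes were picked for a small p in the same libraries, which itself favours keeping a call. Replicate numbers were not taken as pairs, since deviations of same-numbered libraries correlated at -0.25 to 0.17. With 2 libraries a group, effects near 0.2 log2 are at the limit of what the mean resolves.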
